A study of Mus musculus with 4 samples.

Results

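The genes described here are 9 genes of primary (azurophilic) granules and granulocyte-macrophage progenitors, namely Mpo, Elane, Prtn3, Ctsg, Ms4a3, Gfi1, Plac8, Igsf6 and Cd33. They were taken by gene symbol from the probe annotation of the array, and all 9 were among the 18193 genes measured. Each was named by 1 probe set, which therefore gave its value. RNA came from bone marrow cells sorted as lineage negative, cKit+ and Sca1+ (LSK), the sort gate for stem cells and early multipotent progenitors. The WT group was 2 mice with the alleles Ncstn flox/flox and no cre, and the Ncstn KO group was 2 mice with the genotype Ncstn flox/flox Mx1-cre+. Mice of both groups were given polyIC from 14 days of age, in 3 injections at 20 µg per g of body weight, and were analysed 4 weeks after injection at 6 weeks of age. Each group held 1 female and 1 male, with 1 array for each mouse. Mx1-cre is a recombinase transgene under an interferon-inducible promoter that is active in many cell types, and the Ncstn KO mice alone carried it, so loss of Ncstn and presence of the transgene cannot be told apart.

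Neutrophils and monocytes arise from granulocyte-macrophage progenitors. At that stage, and at the promyelocyte stage that follows, the cells make the contents of primary granules. Myeloperoxidase (Mpo) is a heme enzyme that makes hypochlorous acid, and neutrophil elastase (Elane), proteinase 3 (Prtn3) and cathepsin G (Ctsg) are serine proteases stored in the same granules. The transcription factors C/EBP alpha, PU.1 (an ETS factor) and Myb are known to drive these genes, and Gfi1 is a repressor needed for the neutrophil path. Ms4a3 is a membrane protein of the same progenitors, Plac8 a small cysteine-rich protein of myeloid progenitors, Igsf6 an immunoglobulin-family membrane protein of myeloid cells, and Cd33 a sialic acid-binding lectin.

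The promoters of the granule genes and of Ms4a3 are shown because these genes carry the contrast described below. Prtn3 and Elane lie side by side on chromosome 10, with starts 6645 bases apart, while Ctsg lies on chromosome 14, Mpo on chromosome 11 and Ms4a3 on chromosome 19. Each sequence is the 250 bases before the annotated start, from RefSeq on build GRCm38.p6, written 5′ to 3′ on the gene's strand. The windows are chr10:79879417-79879666 (plus strand) for Prtn3, chr10:79886062-79886311 (plus) for Elane, chr14:56102575-56102824 (minus) for Ctsg, chr11:87793534-87793783 (plus) for Mpo and chr19:11640852-11641101 (minus) for Ms4a3. Capitals mark matches, on either strand, to the ETS motif AGGAAGT or the Myb motif AACNG.
Prtn3: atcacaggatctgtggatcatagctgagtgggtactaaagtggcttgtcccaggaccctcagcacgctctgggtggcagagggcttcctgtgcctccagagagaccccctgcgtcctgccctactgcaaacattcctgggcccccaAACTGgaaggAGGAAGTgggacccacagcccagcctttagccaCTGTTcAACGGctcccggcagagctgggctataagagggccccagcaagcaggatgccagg
Elane: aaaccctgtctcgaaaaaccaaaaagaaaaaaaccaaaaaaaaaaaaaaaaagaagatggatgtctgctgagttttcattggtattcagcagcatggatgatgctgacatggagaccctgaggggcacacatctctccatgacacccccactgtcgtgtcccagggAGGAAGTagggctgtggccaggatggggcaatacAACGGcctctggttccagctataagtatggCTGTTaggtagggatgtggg
Ctsg: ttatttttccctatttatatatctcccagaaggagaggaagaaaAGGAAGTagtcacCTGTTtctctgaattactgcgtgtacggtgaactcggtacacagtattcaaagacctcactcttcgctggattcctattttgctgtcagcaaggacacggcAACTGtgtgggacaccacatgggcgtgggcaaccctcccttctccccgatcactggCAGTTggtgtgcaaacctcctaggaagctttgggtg
Mpo: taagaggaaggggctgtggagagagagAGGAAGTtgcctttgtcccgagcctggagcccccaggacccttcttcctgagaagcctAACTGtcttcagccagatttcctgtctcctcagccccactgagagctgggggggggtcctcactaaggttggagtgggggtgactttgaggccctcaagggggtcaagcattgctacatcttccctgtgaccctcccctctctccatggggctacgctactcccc
Ms4a3: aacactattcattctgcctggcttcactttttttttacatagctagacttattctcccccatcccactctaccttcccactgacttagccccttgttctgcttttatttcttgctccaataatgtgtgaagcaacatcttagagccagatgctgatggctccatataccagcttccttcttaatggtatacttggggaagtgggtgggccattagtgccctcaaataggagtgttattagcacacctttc

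All 4 granule genes held 1 match to AGGAAGT on the gene's strand. It began 94 bases before the start of Prtn3, 84 before Elane, 206 before Ctsg and 223 before Mpo. The other 5 members had no match in their windows, and 7.69% of the 32851 promoter windows of the same length held one. AACNG, a short motif found in 74.2% of all windows, matched in 7 of the 9 members. In Elane and Prtn3 a match to AACGG on the gene's strand began 50 and 55 bases before the start. The C/EBP motif TTNNGNAA, on either strand, matched in the windows of Ms4a3, Plac8, Igsf6 and Gfi1 and in 36.8% of all windows. Matches to the Myb and C/EBP motifs overlapped at single sites in Plac8 and Gfi1. Both of those genes have 2 annotated starts, and both windows of each were searched. These matches describe the letters of the windows, and Mpo shared the ETS match with the proteases although its level differed from theirs in the comparison below. The motifs were chosen after the windows and the expression values had been seen.

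**Figure D1:**
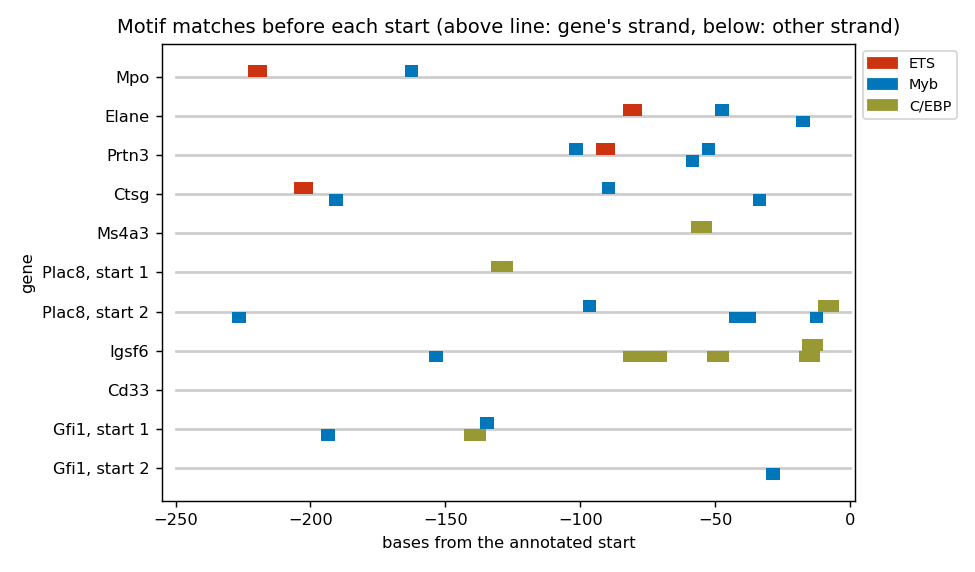
Matches to the ETS (AGGAAGT), Myb (AACNG) and C/EBP (TTNNGNAA) motifs in the 250 bases before each annotated start of the 9 genes; the x axis gives bases from the start and boxes lie above the line for the gene's strand and below it for the other strand. ETS matches appear in the rows of Mpo, Elane, Prtn3 and Ctsg and in no other row.

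Across the 4 arrays the median intensity over 45101 probe sets ran from 71.6 to 79.2, and with 4 arrays the precision of each value is limited. The targeted gene Ncstn, which encodes the nicastrin subunit of gamma-secretase, lay at log2 intensities of 9.05 and 8.98 on the WT arrays and 7.58 and 7.91 on the Ncstn KO arrays. Kit, a gate marker, had 11.94 and 11.57 in WT and 11.70 and 11.73 in Ncstn KO, and the Sca1 gene was not analysed here. Of 10 measured stem cell genes 9 lay above the median level of all genes. So did 11 of 12 mature neutrophil genes, which mark cells that a lineage-negative gate should leave out. The limma fit of Ncstn KO against WT called 0 of 18193 genes (0%) at a Benjamini-Hochberg adjusted p under 0.05 and 1237 (6.80%) at an unadjusted p under 0.05. Below, a change is log2 Ncstn KO minus WT with its standard error (SE) from that fit, n = 2 per group, and adjusted p-values are over all 18193 genes.

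The 3 granule protease genes and Ms4a3 were higher on both Ncstn KO arrays than on both WT arrays, and Mpo was not. Elane was 2.28-fold higher, Prtn3 1.68-fold, Ctsg 1.50-fold and Ms4a3 2.54-fold, while Mpo lay at 1.01-fold. All 9 members had a higher mean in Ncstn KO, as did 55.8% of all genes. Both Ncstn KO arrays lay above both WT arrays for 7 of the 9, against 21.3% of all genes, and the exceptions were Mpo and Plac8. An unadjusted p under 0.05 in the upward direction was found for 5 members, against 4.96% of all genes, and 0 members passed after adjustment. A change of 2-fold or more with separate groups was found for Elane, Ms4a3 and Igsf6, against 1.19% of all genes in that direction. The median change of the members was 0.58, against 0.025 over all genes. The members were chosen with earlier results of these data known, so these counts describe them and are not a test. In whole sorted populations, more cells of a type and more RNA per cell cannot be told apart.

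**Figure D2:**
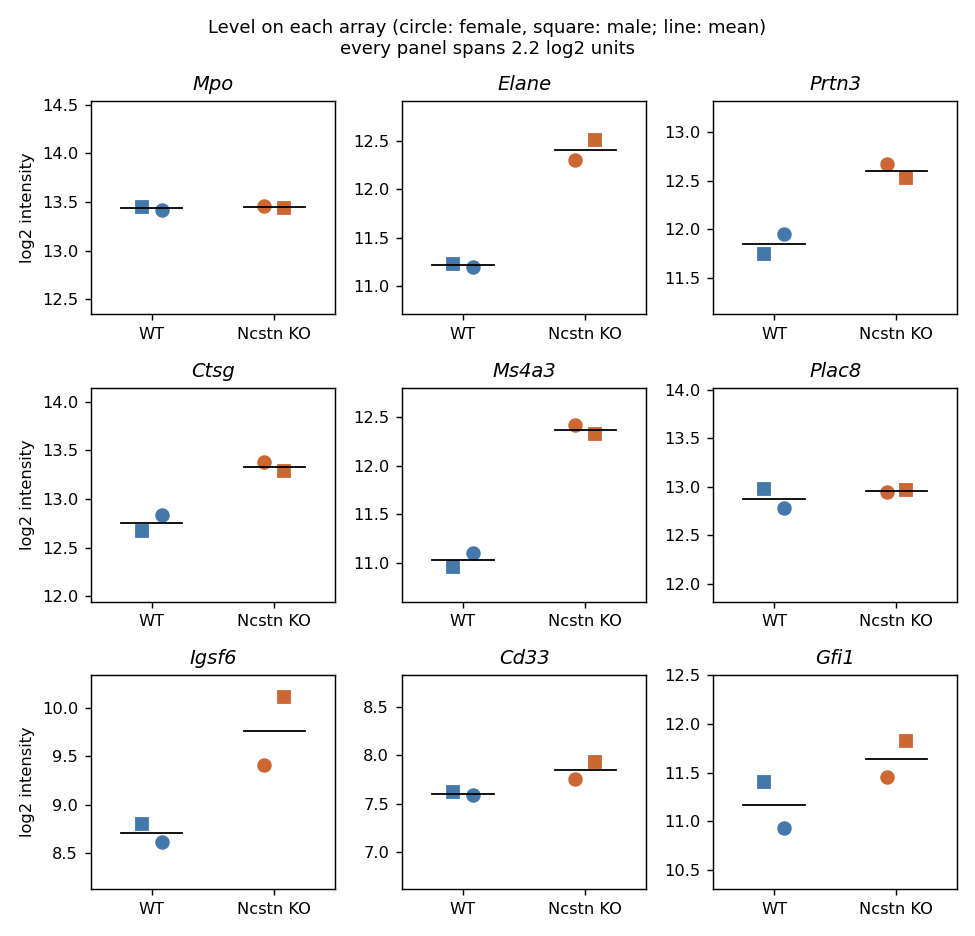
Log2 intensity of each of the 9 genes on the 4 arrays, with WT in blue and Ncstn KO in orange, circles for females, squares for males and lines for group means; every panel spans the same 2.2 log2 units. Elane goes from 11.24 and 11.20 in WT to 12.30 and 12.51 in Ncstn KO, while the 4 points of Mpo lie between 13.42 and 13.46.

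Elane had log2 intensities of 11.24 and 11.20 on WT replicates 1 and 2, and of 12.30 and 12.51 on Ncstn KO replicates 1 and 2. The lowest Ncstn KO array was 1.06 above the highest WT array. The change was 1.19 (SE 0.11, 95% interval 0.93 to 1.44), the fourth smallest unadjusted p of all genes, with a limma adjusted p of 0.117. Elastase cleaves extracellular matrix proteins and bacterial outer membrane proteins.

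Prtn3 had 11.75 and 11.95 in WT and 12.67 and 12.53 in Ncstn KO, a change of 0.75 (SE 0.10, 95% interval 0.49 to 0.9998, limma adjusted p = 0.196). Its groups were separated by 0.58. Ctsg, the chymotrypsin-like member of the group, had 12.67 and 12.84 in WT and 13.38 and 13.29 in Ncstn KO, a change of 0.58 (SE 0.08, 95% interval 0.38 to 0.78, limma adjusted p = 0.196). Its groups were separated by 0.45. Among the proteases the size of the change followed the order Elane, Prtn3, Ctsg, and the interval of Prtn3 overlapped those of both Elane and Ctsg.

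Mpo had 13.45 and 13.42 in WT and 13.46 and 13.44 in Ncstn KO, so that the 2 groups overlapped. Its change was 0.01 (SE 0.05), with a limma 95% interval of 0.921-fold to 1.11-fold and an adjusted p of 0.9996. On every array Mpo lay between the 99.56th and the 99.59th percentile of probe set intensity. Its linear intensities were 10946 to 11264, under the highest intensities of the arrays, which were 22354 to 23643. Whether this probe set still responds in proportion at that brightness was not tested. Ctsg lay between the 98.1th and the 99.5th percentile. Among the 4 granule genes, the brighter a gene was in WT, the smaller was its change. Their mean WT log2 intensities were 11.22 for Elane, 11.85 for Prtn3, 12.75 for Ctsg and 13.44 for Mpo. The order did not hold over all 9 members, as Cd33, the dimmest at 7.60 in WT, had a change of 0.24. Whether the protease probe sets respond in proportion was not tested either.

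The within-array contrast of the proteases with Mpo does not change when all log2 values of an array are shifted by the same amount. The change of Elane exceeded that of Mpo by 1.17, and setting each Ncstn KO array against each WT array gave 1.06 to 1.29. For Prtn3 against Mpo the difference was 0.73 (0.55 to 0.91) and for Ctsg against Mpo 0.57 (0.43 to 0.71). All 4 array pairings had the same sign in each of these contrasts. Repeated quantile normalization, which is not such a shift, gave 1.18 for Elane, 0.75 for Prtn3 and 0.58 for Ctsg against Mpo. With 2 arrays against 2, the exact two-sided permutation test cannot give a p under 0.333, which is the value for each of the 3 (0.444 after Benjamini-Hochberg adjustment over 8 pairs).

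Elane was also set against the 5 members that are not granule proteins. Against Plac8 the change of Elane was larger by 1.11 (0.93 to 1.28 over the array pairings), against Cd33 by 0.94 (0.93 to 0.96) and against Gfi1 by 0.72 (0.41 to 1.02), each with an exact permutation p of 0.333. Against Ms4a3 the difference was -0.16 (-0.40 to 0.08, exact permutation p = 0.667), and against Igsf6 it was 0.14 (-0.18 to 0.46, exact permutation p = 1). In those last 2 contrasts the array pairings fell on both sides of 0. The Elane and Igsf6 contrast was -0.10 without Ncstn KO replicate 1.

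The other proteases, added later and given with no test, lay lower in this order. The change of Prtn3 was below that of Ms4a3 (difference -0.60, array pairings -0.65 to -0.55), and so was that of Ctsg (-0.77, -0.77 to -0.76). Against Igsf6 the differences were -0.30 (-0.91 to 0.31) for Prtn3 and -0.47 (-1.04 to 0.10) for Ctsg, with pairings on both sides of 0. Against Gfi1 the pairings also lay on both sides, around 0.28 for Prtn3 and 0.11 for Ctsg. Against Plac8 (0.67 for Prtn3, 0.50 for Ctsg) and Cd33 (0.51 and 0.34) all pairings lay above 0.

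**Figure D3:**
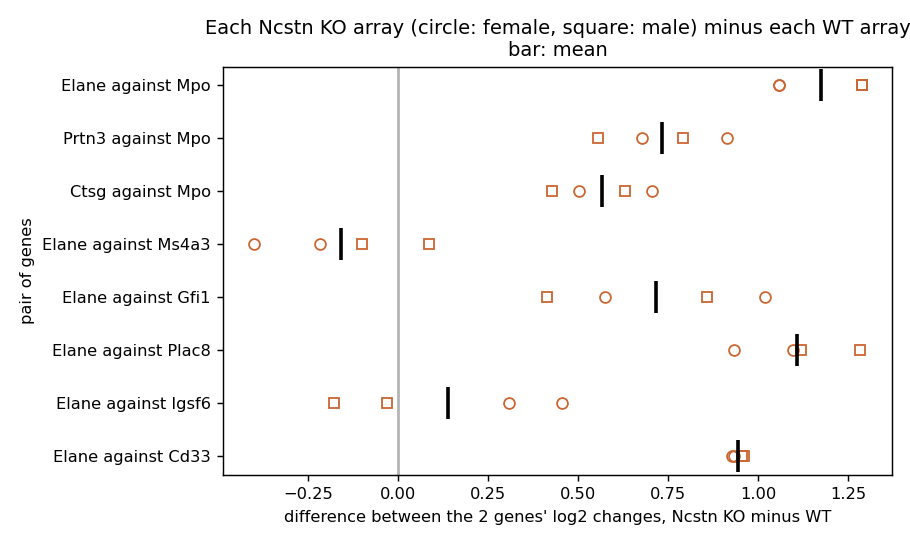
Difference between the log2 changes of 2 genes for 8 pairs; each open symbol is 1 Ncstn KO array (circle: female, square: male) minus 1 WT array and the bar is the mean. The symbols of Elane, Prtn3 and Ctsg against Mpo all lie above 0, whereas those of Elane against Ms4a3 and against Igsf6 lie on both sides of it.

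Among the genes of the progenitor surface and cytosol, Ms4a3 had the largest change of the 9 members. It had 10.95 and 11.10 in WT and 12.42 and 12.32 in Ncstn KO, a gap of 1.22 between the groups. The change was 1.35 (SE 0.10, 95% interval 1.10 to 1.59, limma adjusted p = 0.0624). Its product is known as a regulator of the cell cycle in blood cells.

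Igsf6 had 8.80 and 8.62 in WT and 9.41 and 10.11 in Ncstn KO, a change of 1.05 (SE 0.26, 95% interval 0.40 to 1.69, limma adjusted p = 0.471). The Ncstn KO arrays differed from each other more for Igsf6 than for any other member, with an SD of 0.49, but both lay above WT. Without Ncstn KO replicate 2 the change was 0.70.

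Cd33 had 7.62 and 7.59 in WT and 7.76 and 7.94 in Ncstn KO, a change of 0.24 (SE 0.22, 95% interval -0.30 to 0.78, limma adjusted p = 0.959). It was the member that lay below the median level of all genes, 8.04. Its groups were separate by 0.14, less than the SE of the fit. Plac8 had 12.98 and 12.78 in WT and 12.94 and 12.97 in Ncstn KO, and its groups overlapped. The change of Plac8 was 0.08 (SE 0.08, 95% interval -0.13 to 0.28, limma adjusted p = 0.970).

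Gfi1 had 11.41 and 10.93 in WT and 11.45 and 11.82 in Ncstn KO, a change of 0.47 (SE 0.20, 95% interval -0.01 to 0.96, limma adjusted p = 0.762). Its groups were separated by 0.04, less than the SD of 0.34 in WT and 0.26 in Ncstn KO. The male array was the higher one in both genotypes. Without WT replicate 2 the change was 0.23 and without WT replicate 1 it was 0.71.

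Each genotype held 1 female and 1 male, so the change was also read within each sex. The Ncstn KO array was the higher one in both sexes for 7 members, against 32.3% of all genes. With the female value first and the male value next, Elane had 1.10 and 1.27, Prtn3 0.72 and 0.78, Ctsg 0.54 and 0.62, and Ms4a3 1.32 and 1.37. Of these 4 genes Elane differed most between the pairs, by -0.17 (female minus male). Igsf6 had 0.79 and 1.31, and Gfi1 had 0.52 and 0.42. Mpo and Plac8, whose differences lay near 0, had opposite signs in the pairs.

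In a fit with genotype and sex, 0 of the 9 members passed for females against males, where 4 of 18193 genes (0.0220%) passed. An unadjusted p under 0.05 was found for 3 members, against 8.58% of all genes. The arrays of the sexes did not overlap for Plac8 alone of the 9, which was higher in males, against 40.5% of all genes. Gfi1 was lower in females (female minus male -0.43, SE 0.09, limma adjusted p = 0.574). Prtn3 (0.17, SE 0.06) and Ctsg (0.13, SE 0.05) were higher in females, each with a limma adjusted p of 0.574. The differences of these proteases between the sexes were smaller than those between the genotypes.

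**Figure D4:**
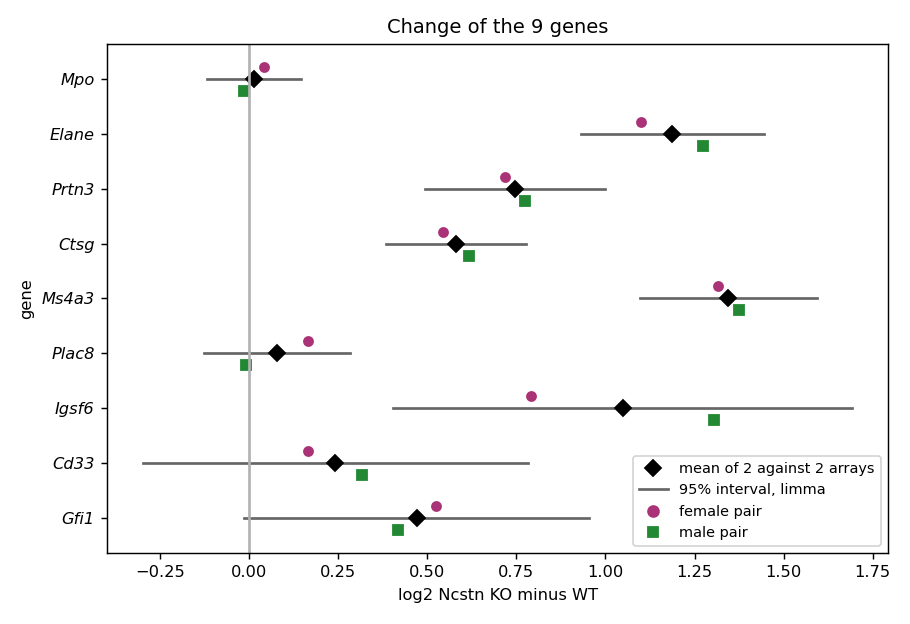
Log2 change, Ncstn KO minus WT, of the 9 genes: diamonds are means of 2 against 2 arrays, lines the 95% intervals of the limma fit, circles the female and squares the male pair. The intervals of Elane, Prtn3, Ctsg, Ms4a3 and Igsf6 lie above 0, and those of Mpo, Plac8, Cd33 and Gfi1 include it.

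The bacterial and phage hybridization controls, RNAs added at fixed amounts, had a mean log2 intensity that was higher in Ncstn KO by 0.195. The phage controls are cre probe sets, and the Ncstn KO mice alone carried a cre transgene. Whether RNA of the transgene added to these controls was not tested. Scaled to them, the change was 0.99 for Elane, 1.15 for Ms4a3, 0.55 for Prtn3 and 0.38 for Ctsg, and the median of all genes was -0.17. This scaling lowers the change of every gene by the same 0.195, which puts Mpo at -0.18 and Plac8 at -0.12. The groups were then separate upward for 5 of the 9 members. When arrays were centred on their medians, Elane and Ms4a3 passed (adjusted p = 0.00930 each by limma) beside 62 genes in all, and over all alternatives their adjusted p ran from 0.00930 to 0.334 for Elane and from 0.00930 to 0.297 for Ms4a3. Elane was also under the threshold without Ncstn KO replicate 1 and Ms4a3 without Ncstn KO replicate 2, in fits that leave 1 Ncstn KO array, take the spread from the 2 WT arrays and assume that the lone array varies like them.

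The genomic neighbours of the granule genes were read from the order of genes in RefSeq, taking the 2 nearest measured genes on each side. Around Prtn3 and Elane, the splicing repressor gene Ptbp1 had a change of 0.01 (SE 0.08), Plppr3 0.45 (SE 0.22), Med16 0.18 (SE 0.18) and R3hdm4 0.18 (SE 0.09). None of these passed, and neither did Elane or Prtn3. Plppr3, Med16 and R3hdm4 also had both Ncstn KO arrays above both WT arrays, as did 21.3% of all genes, while Ptbp1 overlapped. The changes of these neighbours were all smaller than those of the 2 proteases between them. Next to Ctsg lies Mcpt8, a serine protease gene of basophils. It had 10.16 and 10.26 in WT and 11.27 and 11.20 in Ncstn KO, a change of 1.03 (SE 0.12, limma adjusted p = 0.161). The other neighbours of Ctsg, Mcpt4, Gzme and Gzmd, were dim, between log2 intensities of 1.93 and 4.55. Beside Mpo, Lpo, a gene for another peroxidase, had a change of 0.04 (SE 0.28), Tspoap1 of 0.54 (SE 0.23), Mks1 of 0.16 (SE 0.21) and Mir142 of -0.02 (SE 0.59).

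Genes whose products process, store or inhibit granule proteins were described next. This list and those that follow were also chosen with earlier results known, so their counts are descriptions and not tests. Of 15 measured, 14 had a higher mean in Ncstn KO, against 55.8% of all genes. Groups were separate upward for 6, against 21.3% of all genes. The median change was 0.21, with 0 past the adjusted threshold. Slpi, a secreted inhibitor of elastase and cathepsin G, had 10.68 and 10.59 in WT and 11.68 and 11.58 in Ncstn KO, a change of 0.99 (SE 0.11, limma adjusted p = 0.161). Serpinb6a, an intracellular inhibitor of cathepsin G, had 0.68 (SE 0.16) and Cst7, an inhibitor of cysteine cathepsins, 0.37 (SE 0.13). Hk3, a hexokinase of myeloid cells, had 0.37 (SE 0.17). Picked after their values were seen, Ctsc, the peptidase that activates all 3 proteases, had 0.01 (SE 0.15), and Srgn, the proteoglycan that binds them in the granule, 0.02 (SE 0.06).

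Of 11 myeloid transcription regulators 9 had a higher mean, against 55.8% of all genes, and 5 were separate upward, against 21.3%. Their median was 0.23, with 0 past the adjusted threshold. Cebpd had 8.31 and 8.06 in WT and 9.05 and 9.21 in Ncstn KO, a change of 0.94 (SE 0.20, limma adjusted p = 0.375). Cebpa, which is needed to form granulocyte-macrophage progenitors, had 0.34 (SE 0.08), Irf8, a factor of the monocyte path, 0.43 (SE 0.15) and Spi1, which encodes PU.1, 0.26 (SE 0.15). These 4 genes had separate groups, and none passed. Among 11 progenitor cytokine and surface receptor genes, 4 were separate upward and 4 downward, against 21.3% and 12.8% of all genes. Their median was 0.08. Fcgr3, an IgG receptor used to gate granulocyte-macrophage progenitors, had 9.16 and 8.90 in WT and 10.09 and 10.75 in Ncstn KO, a change of 1.40 (SE 0.25, limma adjusted p = 0.287). Csf1r, the receptor of macrophage colony-stimulating factor, had 0.75 (SE 0.16), Csf2rb, the shared beta chain of the GM-CSF, IL-3 and IL-5 receptors, 0.49 (SE 0.10) and Il3ra 0.61 (SE 0.22). The genes separate downward were picked after their values were seen. Csf3r, the G-CSF receptor gene of the neutrophil path, had -0.28 (SE 0.15). The others had smaller changes, Cd34 of -0.03 (SE 0.06), Cd48 of -0.10 (SE 0.07) and Cd93 of -0.08 (SE 0.07).

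The monocyte and macrophage list and the basophil and mast cell list had higher summed intensities in Ncstn KO, as did the 9 genes. So did the granule processing and storage, myeloid regulator, progenitor receptor, and erythroid and megakaryocyte lists. In all of these the sums of both Ncstn KO arrays lay above those of both WT arrays. The erythroid and megakaryocyte sum was 5034.5 to 5983.9 in WT and 6786.3 to 9203.8 in Ncstn KO. The summed intensity of the 9 was 36323 to 36989 in WT and 50528 to 50943 in Ncstn KO. For 12 monocyte and macrophage genes the sum was 4085 to 4260 in WT and 7577 to 9274 in Ncstn KO. Of these 12, 8 were separate upward, against 21.3% of all genes, with a median of 0.90. Vcan (2.80, SE 0.33), F13a1 (1.64, SE 0.25), Ccr2 (1.50, SE 0.24) and Ly86 (1.04, SE 0.24) had the smallest p of that list, and Vcan was dim in WT at 4.92 and 4.60. In the same list C1qa (-0.70, SE 0.46), C1qb (-0.67, SE 0.52) and Cx3cr1 (-0.11, SE 0.26) had lower means in Ncstn KO with overlapping groups, and they were picked after their values were seen. For 9 basophil and mast cell genes the sum was 7702 to 8150.5 in WT and 11592 to 12668 in Ncstn KO. A sum is weighted to its brightest genes, and this list also holds Gata2, which had a change of 0.31 (SE 0.07). Gata2 was picked after its values were seen. Of these 9, 8 were separate upward, against the same 21.3%, with a median of 1.10. Fcer1a had a change of 2.10 (SE 0.35), Ms4a2 of 1.54 (SE 0.25) and Cpa3 of 1.10 (SE 0.18), while Mcpt4, a mast cell protease gene, was dim and was separate downward (-0.98, SE 0.35). Ms4a2 is the neighbour of Ms4a3 on chromosome 19. Of the monocyte and macrophage genes 0, and of the basophil and mast cell genes 1 (Mcpt4), lay below the lower quartile of all genes (log2 4.42). Above the median level of all genes lay 5 of the 12 monocyte and macrophage genes and 5 of the 9 basophil and mast cell genes. Vcan and Ms4a2 lay below that median. Of the 9 members 8 lay above it. None of the genes named passed after adjustment, and their part in the changes of the 9 genes was not tested.

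Of 12 mature neutrophil genes measured, 12 had a higher mean, against 55.8% of all genes. Groups were separate upward for 4, against 21.3% of all genes, with a median of 0.42. The summed intensity overlapped, at 45635 to 58576 in WT and 50206 to 69423 in Ncstn KO. Among the primary granule genes, Elane, Prtn3 and Ctsg had separate groups, and Mpo did not. Cxcr2, a chemokine receptor, had a change of 1.20 (SE 0.25), Itgam of 1.07 (SE 0.36), Mmp8 of 0.90 (SE 0.30) and Lcn2 of 0.44 (SE 0.21). Itgam was dim, at log2 intensities of 4.05 and 5.02 in WT and 5.45 and 5.77 in Ncstn KO. Ltf (0.36, SE 0.39), Camp (0.19, SE 0.29) and Ngp (0.10, SE 0.23), the classic proteins of secondary granules, were picked after their values were seen. The difference between the 2 kinds of granule gene was not tested.

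Among the remaining marker lists, 4 eosinophil granule genes had 0 separate groups. Epx, the eosinophil peroxidase gene close to Mpo, had 6.54 and 4.10 in WT and 6.08 and 6.79 in Ncstn KO. Of 11 erythroid and megakaryocyte genes 6 were separate upward and 2 downward, against 21.3% and 12.8% of all genes, with a median of 0.56. Among them were Itga2b (1.33, SE 0.25) and Alas2 (-1.30, SE 0.36). B cell genes had a median of -0.18 over 8 genes, and Ms4a1, of the same family as Ms4a3, had -2.12 (SE 0.24). T and NK cell genes had a median of -0.10 over 9 genes, with Gzmb at 1.69 (SE 0.49) and Gzma at -2.13 (SE 0.70). Stem cell genes had a median of 0.05 over 10 genes, with Slamf1 at 0.83 (SE 0.28) and Ndn at -0.69 (SE 0.19).

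**Figure D5:**
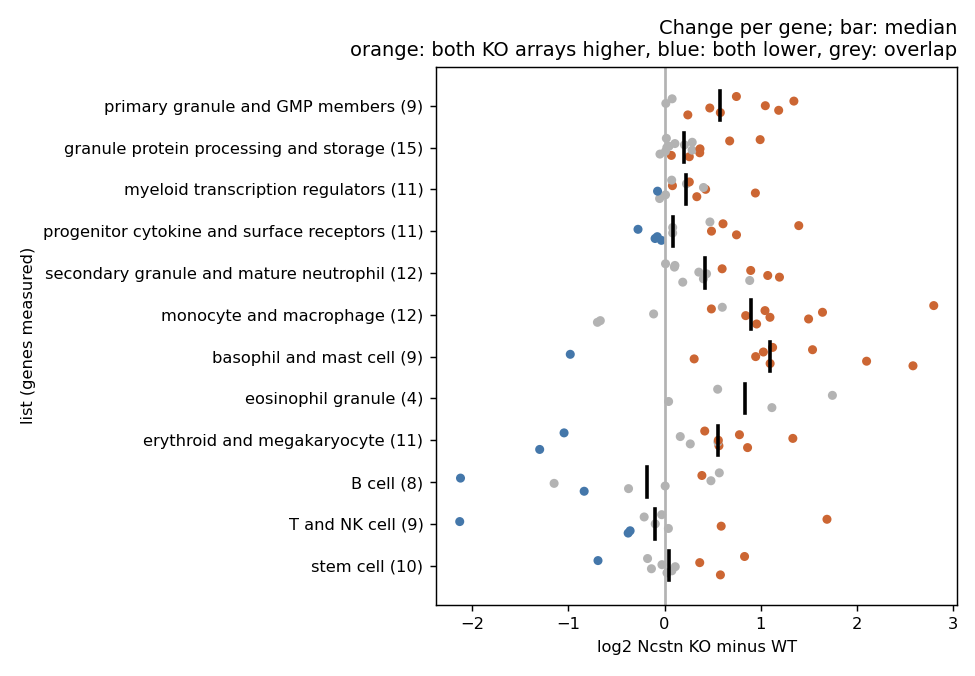
Log2 change, Ncstn KO minus WT, of every measured gene of 12 lists (1 point each), with a bar at each list's median; orange points have both Ncstn KO arrays above both WT arrays, blue points both below, and grey points overlap. The bar of the 9 genes lies at 0.58, beside that of the erythroid and megakaryocyte list at 0.56. The neutrophil list lies at 0.42, the eosinophil list at 0.83, and the monocyte and macrophage list at 0.90.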

How the data were processed

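Expression was measured on 4 Affymetrix arrays, 2 WT and 2 Ncstn KO, from 5 ng of total RNA amplified per sample, per the labels' protocols. The authors deposited linear intensities, 1 value for each probe set. RMA is named in the submitters' processing notes, with its software and version not given in the sources used here. Log2 was taken, and 64 control probe sets were left out. GEO's platform annotation of 2016 named 1 gene for 34945 probe sets, several for 932 and left 9160 unnamed here. The brightest probe set by mean stood for each of 18193 genes.

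Differences were tested in R 4.3.3 with limma 3.58.1 (lmFit and eBayes with trend, two-sided p, Benjamini-Hochberg at 0.05) on genotype alone, and on genotype plus sex to compare the sexes. The first fit had 2 residual and a mean of 4.11 prior degrees of freedom. Differences between the changes of 2 genes used exact permutation over the arrays. Named genes were the 9 members, Ncstn, Kit, up to 4 genes of smallest p in each of 12 other lists, and the neighbours of granule genes; others are marked where they appear. Members and lists were chosen with earlier results of these data known. Samples with the same replicate number deviated in opposite directions (correlation -0.24 over genes) and are of opposite sex, so the number was not used as a pairing. In 20 simulated data sets for this comparison, each with 200 of 18193 genes changed, 27.2% of changes of log2 1 and 80.8% of log2 2 were recovered, with 4.72% of calls false. Figures used matplotlib 3.10.9.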

Additional observations from a re-analysis of the deposited data

Results flagged for a closer look

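For Mpo and Plac8 the difference between 1 Ncstn KO and 1 WT array had opposite signs in the 2 sexes, at values around 0. The log2 difference of Mpo was 0.041 between the females and -0.015 between the males, and that of Plac8 was 0.17 between the females and -0.0083 between the males. The difference between the sexes was not tested, since 1 pair of arrays for each sex leaves no replicate.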

How the results depend on the processing

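Elane, Prtn3, Ctsg, Ms4a3, Gfi1, Igsf6 and Cd33 kept an upward direction under every alternative run. A further probe set could not be tried for the members, as each has 1, and Cd33 lay below the filter on dim genes. The genes called, 0 in the analysis reported, numbered 62 with arrays centred on their medians, 3 after repeated quantile normalization, 2 among genes above the median level, and 0 to 27 without 1 array. Elane passed at a change of 1.20 with centred arrays, and over the fits without 1 array its change was 1.08 to 1.29. Ms4a3 passed at 1.36 with centred arrays, 1.35 after quantile normalization and 1.35 among genes above the median level, and over the fits without 1 array it was 1.27 to 1.42. Scaling to hybridization controls lowers every gene by 0.195, so Mpo (-0.18) and Plac8 (-0.12), which lay nearer to 0 than that, came out below it. Without 1 array the change was -0.0047 to 0.031 for Mpo, -0.020 to 0.18 for Plac8 and -0.10 to 0.38 for Elane against Igsf6. Females against males turned for Mpo to 0.082 with centred arrays and 0.011 after quantile normalization. Genes at least 2-fold apart with separate arrays, 311 in the analysis reported, were 80 among genes above the median level, 190 with 16 added before log2, 118 with the second brightest probe set, and 419 to 566 without 1 array. The filtered fits held fewer genes, and causes of these shifts were not tested. The replicate block called 0 genes (920 at an unadjusted p under 0.05), with Elane still at 1.19, and sex as a term, which is the crossed pairing, called 0 (1591). Arrays give no read depth, and signal over background was not assessed.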
